A study of Mus musculus with 12 samples.

Results

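Matrix metalloproteinases (MMPs) are zinc-dependent enzymes that cut proteins of the extracellular matrix, and tissue inhibitors of metalloproteinases (TIMPs) block them. Transcripts of 6 MMP genes (Mmp8, Mmp9, Mmp12, Mmp13, Mmp14 and Mmp19) and 2 TIMP genes (Timp1 and Timp2) were followed in mouse bone marrow-derived macrophages, cells differentiated in culture out of bone marrow. The 8 genes were listed by name and matched by symbol in a table of 32285 genes. All 8 were found, and all 8 were among the 14113 genes with enough counts to be tested. The cells were wild type in every group and were kept for 16 h with 1 of 3 acids at 5 mM or in medium alone (M). The acids were itaconic acid (IA), the shorter malonic acid (MA) and, again a dicarboxylic acid, methylsuccinic acid (MetSA). Each of the 4 groups held 3 biological replicates. The sources used here do not say whether these came from separate animals, so p-values measure the spread between these cultures. Itaconic acid is made by activated macrophages. It is unsaturated, and methylsuccinic acid is its saturated counterpart, with a methyl in place of the methylene group.

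Most MMPs are secreted as inactive precursors and become active when another protease removes the propeptide, while Mmp14 stays anchored in the cell membrane. Collagenases cleave fibrillar collagen, gelatinases degrade denatured collagen and basement membrane collagen, and the macrophage metalloelastase degrades elastin. Macrophages secrete both MMPs and TIMPs. The messenger RNA level measured here does not show how much enzyme was secreted or activated.

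Library totals ran from 46892488 to 54252486 counts, and 1 count was worth 0.0185 to 0.0213 CPM (counts scaled to a common library size after TMM normalisation, the unit of all levels below). Summed CPM of 12 macrophage markers ran from 26120 to 34670 over the 12 libraries, with Lyz2 alone at 14970 to 21290 CPM in group means. The single markers were not steady. At an adjusted p under 0.05 in edgeR's test, 8 were higher and 1 lower than in M after IA and after MetSA. After MA 3 were higher and 3 lower. Of all genes tested, 35.2% passed after IA, 20.3% after MA and 21.2% after MetSA. Among lymphocyte markers, Cd3g and Ncr1 were at 0 in all libraries, Cd3e, Cd8a, Nkg7 and Trbc2 had at most 10 counts, Cd79a had 0 to 26 counts and Ms4a1 had 4 to 31 counts. MetSA replicate 3 stood apart from the other 2 MetSA libraries on the third principal component of log2 CPM (32.7, against 2.46 and 8.90), and leaving it out changed calls of the 8 genes only between IA and MetSA. In bulk RNA, fewer cells that express a gene and less RNA per cell cannot be told apart. Without strand information, reads of overlapping genes cannot be assigned with certainty. This touches Mmp19, which shares 789 of its 3533 exon bases with Tmem198b on the opposite strand (434 to 711 counts per library). It touches Mmp12 less, since the Mmp1b exons that cover 157 of its bases had 0 counts. Timp1 lies within Syn1, on the opposite strand, with no shared exon bases. No stretch of 100 bases of any of the 8 genes' annotated transcripts occurred in another gene's transcript.

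Every acid moved several of these genes, and in both directions. After IA 7 of the 8 genes were called (4 higher and 3 lower), where 35.2% of all genes tested were called (17.9% higher and 17.3% lower). After MA 7 were called (4 higher and 3 lower), where 20.3% of all genes were (10.1% higher and 10.1% lower). After MetSA 5 were called (3 higher and 2 lower), where 21.2% of all genes were (12.6% higher and 8.53% lower). A call is an adjusted p under 0.05 in the quasi-likelihood test of edgeR, by the Benjamini-Hochberg method over all genes tested. The median log2 fold change of the 8 genes was 0.03 after IA, -0.14 after MA and 0.05 after MetSA, against medians over all genes of -0.03, -0.02 and -0.01 in the same order. Changes of at least 2-fold among called genes were found for 5 of the 8 genes after IA, 2 after MA and 4 after MetSA, against 7.99%, 3.74% and 3.54% of all genes. These 3 comparisons share the M libraries. With upper-quartile in place of TMM scaling the higher share of all calls was 34.8% for IA against M (50.9% with TMM) and 42.2% for MetSA against M (59.7% with TMM). No call of the 8 genes against M changed with that scaling.

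**Figure D1:**
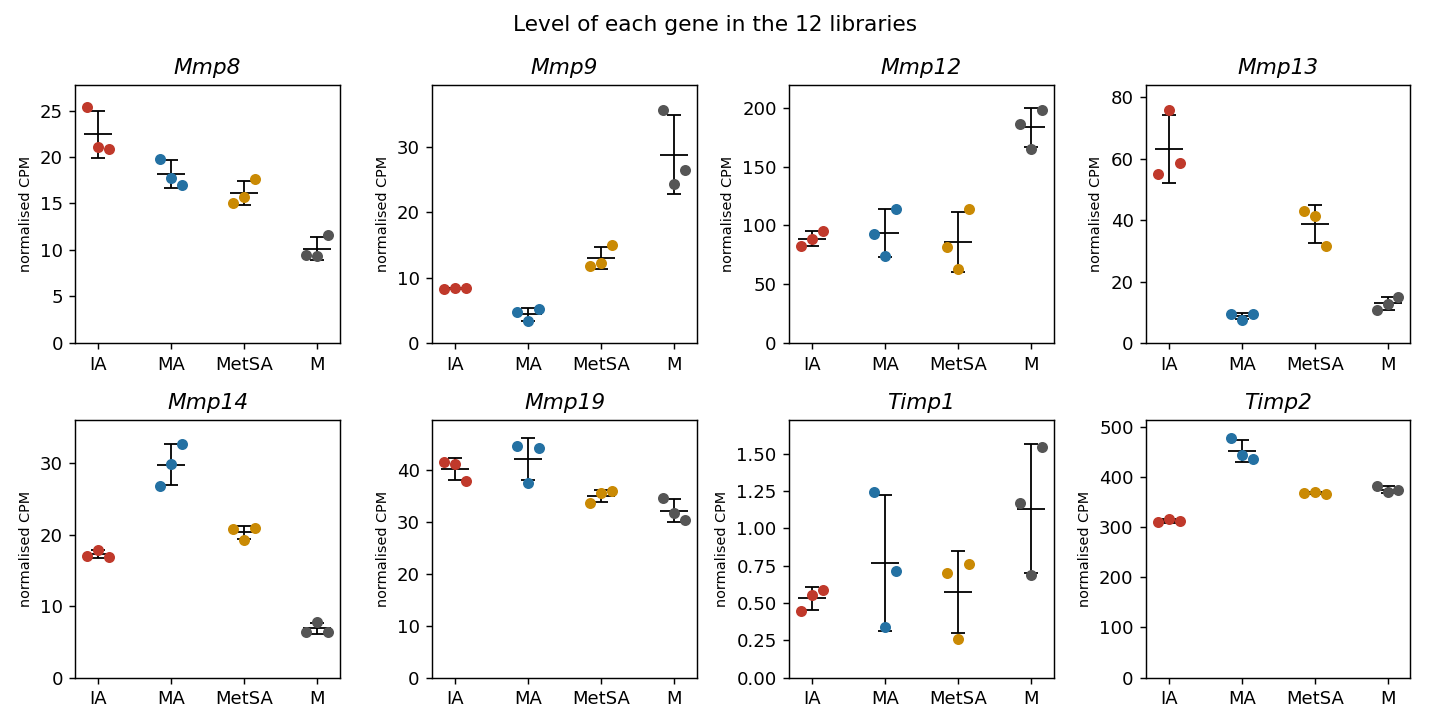
Normalised CPM of each gene in the 12 libraries. Points are libraries, horizontal marks are group means and bars are SDs of 3 libraries, with IA, MA, MetSA and M from left to right and a linear axis from 0 in each panel. Mmp9 and Mmp12 lie below M in every acid library, Mmp8 and Mmp14 lie above M in every acid library, and Mmp13 lies above M after IA and MetSA and below M after MA.

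The collagenase genes Mmp13 (collagenase 3, ENSMUSG00000050578) and Mmp8 (collagenase 2, known from neutrophil granules, ENSMUSG00000005800) lie in a cluster of MMP genes on chromosome 9 (GRCm38, mm10). Mmp13 spans 7272514 to 7283331, the metalloelastase gene Mmp12 (ENSMUSG00000049723) 7344381 to 7369499, and Mmp8 7558456 to 7568485, all on the plus strand. The cluster holds 9 annotated protein-coding MMP genes from 7272514 to 7699585. Of these, 5 were tested (Mmp13, Mmp12, Mmp10, Mmp8 and Mmp27), while Mmp3, Mmp7 and Mmp1b had 0 counts in all libraries and Mmp20 at most 2. The start regions of Mmp13, Mmp12 and Mmp8 are shown because these genes lie in 1 cluster and moved differently. Each is 250 bases before to 50 bases after a start site, 5' to 3' on the plus strand, from RefSeq on GRCm38.p6. Capitals mark the AP-1 letters TGAGTCA and the TATA letters TATAAA on either strand. The windows are chr9:7272264-7272563 for Mmp13, chr9:7347124-7347423 for Mmp12 and chr9:7558179-7558478 for Mmp8.
Mmp13: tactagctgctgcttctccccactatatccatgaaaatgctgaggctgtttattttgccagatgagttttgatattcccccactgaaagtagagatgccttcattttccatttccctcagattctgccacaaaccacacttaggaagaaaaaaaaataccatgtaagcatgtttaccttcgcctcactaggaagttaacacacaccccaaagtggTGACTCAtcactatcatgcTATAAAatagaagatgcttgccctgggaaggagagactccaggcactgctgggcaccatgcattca
Mmp12: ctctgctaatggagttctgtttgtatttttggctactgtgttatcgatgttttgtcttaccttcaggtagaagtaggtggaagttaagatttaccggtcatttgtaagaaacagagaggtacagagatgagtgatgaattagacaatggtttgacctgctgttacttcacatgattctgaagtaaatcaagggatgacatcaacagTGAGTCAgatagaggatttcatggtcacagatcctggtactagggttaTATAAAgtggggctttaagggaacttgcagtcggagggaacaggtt
Mmp8: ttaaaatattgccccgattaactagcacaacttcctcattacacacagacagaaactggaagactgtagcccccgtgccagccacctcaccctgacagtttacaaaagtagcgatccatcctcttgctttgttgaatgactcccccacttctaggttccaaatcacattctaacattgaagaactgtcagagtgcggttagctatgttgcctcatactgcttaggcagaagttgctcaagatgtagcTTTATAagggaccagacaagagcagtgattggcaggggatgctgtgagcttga

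AP-1 is a transcription factor complex of Fos and Jun proteins, and its letters (TGAGTCA, on the other strand TGACTCA) began 35 bases before the start site of Mmp13 and 44 bases before that of Mmp12. Among 32851 start regions of the same length 5.2% held them. The TATA letters (TATAAA, on the other strand TTTATA) occurred in 13.6% of all windows. They began 16 bases before the start site of Mmp13 and 4 bases after that of Mmp12. On the other strand, they began 3 bases before the RefSeq start site of Mmp8, which lies 27 bases from the nearest GENCODE start. The core letters of the interferon-stimulated response element (GAAA, any 2 bases and GAAA again, on either strand) occurred in Mmp13, beginning 146 bases before its start, and in 3.44% of all windows. The 6 genes with a window in the table were Mmp8, Mmp12, Mmp13, Mmp14, Timp1 and Timp2, with a further Mmp12 window at an upstream start site. Outside the 3 windows printed, none of these letters was found in the others. A match is a run of letters and not a measured site. Of 9 AP-1 subunit genes tested, 2 were called higher and 1 lower after IA, 1 higher after MetSA and none after MA by edgeR, where 35.2%, 21.2% and 20.3% of all genes were called in the same order of acids. Jun had 142 CPM in IA, 108 in MA, 137 in MetSA and 110 in M libraries on average, and was called against M after IA (log2 fold change 0.37, SE 0.09) and MetSA (0.31, SE 0.09). Atf3 rose after IA (0.30, SE 0.07) and Junb fell by 0.22 after IA (SE 0.07). Neither was called after MA or MetSA. The other AP-1 subunit genes on the list, Fos, Fosb, Fosl1, Fosl2, Jund and Batf, were not called after any acid.

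Mmp13 was the gene of the list with the widest differences between acids. It had 55.0, 75.9 and 58.6 CPM in IA libraries, 9.47, 7.62 and 9.33 CPM in MA libraries and 43.1, 41.3 and 31.75 CPM in MetSA libraries, against 10.8, 12.8 and 15.02 CPM in M libraries. The levels ran in the order IA, MetSA, M and MA, and no 2 neighbours in that order overlapped. Mmp13 rose 4.91-fold after IA (log2 fold change 2.29, SE 0.16, edgeR adjusted p = 3.38e-07) and 3.01-fold after MetSA (1.59, SE 0.16, adjusted p = 1.71e-05). After MA it fell by 0.55 on the log2 scale (SE 0.17, adjusted p = 0.0384). That fall was lost, with adjusted p up to 0.147, when any of MA replicates 1 to 3, M replicate 2, M replicate 3, IA replicate 3 or MetSA replicate 2 was left out, and with the replicate number as a block (adjusted p = 0.0977), while the value stayed between -0.42 and -0.66 under all alternatives.

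Mmp8 was higher than M after every acid. It had 25.4, 21.1 and 20.9 CPM in IA libraries, 19.8, 17.7 and 16.95 CPM in MA libraries and 15.03, 15.7 and 17.6 CPM in MetSA libraries, against 9.49, 9.37 and 11.6 CPM in M libraries. The ranges of MA and MetSA overlapped, and no other neighbours in the order IA, MA, MetSA, M did. The log2 fold changes against M were 1.15 after IA (SE 0.11, adjusted p = 1.04e-07), 0.84 after MA (SE 0.11, adjusted p = 1.01e-05) and 0.67 after MetSA (SE 0.11, adjusted p = 0.000141), and each call held under all 20 alternatives. Neutrophils are another source of Mmp8. A list of 13 other neutrophil markers, without Mmp8 and Mmp9, summed to 228 to 279 CPM in IA, 243 to 262 in MA and 243 to 261 in MetSA, against 162 to 214 CPM in M libraries. Without Csf3r the other 12 genes summed to 65.85 to 106 CPM in IA, 59.25 to 79.9 in MA and 70.9 to 95.6 in MetSA, against 66.2 to 103 CPM in M libraries, and each acid group overlapped M. Of the 13 genes only the G-CSF receptor Csf3r was called against M, and it rose after each acid (log2 fold changes 0.76, 0.84 and 0.72 after IA, MA and MetSA). The granule genes Ltf, Ngp, Camp, Mpo and Elane and the marker pair S100a8 and S100a9 were not called after any acid. None of the 13 was at 0 in all libraries, and Ly6g had 0 to 12 counts. The part of such cells in the Mmp8 result was not tested.

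Mmp9 (gelatinase B, ENSMUSG00000017737, chromosome 2 from 164940780 to 164955850) fell after every acid and most after MA. It had 8.24, 8.37 and 8.38 CPM in IA libraries, 4.68, 3.29 and 5.12 CPM in MA libraries and 11.8, 12.3 and 14.99 CPM in MetSA libraries, against 35.6, 24.3 and 26.4 CPM in M libraries. The order was M, MetSA, IA and MA, with no overlap between neighbours. In fold terms the level was 6.59-fold lower in MA, 3.45-fold lower in IA and 2.21-fold lower in MetSA than in M. The fall after MetSA was 1.14 on the log2 scale (SE 0.15, edgeR adjusted p = 3.73e-05). The falls after IA (adjusted p = 1.92e-07), MA (4.03e-09) and MetSA were called under all 20 alternatives. Mmp9 is also a gene of osteoclasts, the bone-resorbing cells of the same lineage. The other 9 osteoclast markers on the list summed to 147 to 154 CPM in IA, 164 to 177 in MA and 159 to 182 in MetSA, against 230 to 252 CPM in M libraries. Dcstamp, a fusion protein of osteoclast precursors, Atp6v0d2, a proton pump subunit, and the integrin Itgb3 fell after each acid, whereas the acid phosphatase Acp5 rose after each. Nfatc1, the transcription factor that drives osteoclast formation, had 86.3 CPM in IA, 98.2 in MA and 86.6 in MetSA, against 80.3 CPM in M libraries on average, and was called after MA (log2 fold change 0.29, edgeR adjusted p = 0.0013). Ocstamp, another fusion protein, and Ctsk were not called after any acid. Calcr and Oscar, which mark mature osteoclasts, were too low to be tested. The part of such cells in the Mmp9 result was not tested.

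Mmp12, the macrophage metalloelastase, had the highest level of the 6 MMPs in M libraries, per exon length as well, and fell after each acid. It had 82.6, 88.4 and 95.3 CPM in IA libraries, 92.9, 73.9 and 114 CPM in MA libraries and 81.8, 63.0 and 114 CPM in MetSA libraries, against 187, 165 and 198 CPM in M libraries. The acid groups overlapped each other, and none of their libraries reached the M range. The log2 fold changes were -1.05 after IA (SE 0.22, adjusted p = 0.00533), -0.97 after MA (SE 0.22, adjusted p = 0.0132) and -1.09 after MetSA (SE 0.22, adjusted p = 0.00732). The call after MA was lost without MA replicate 1 (adjusted p = 0.0509, log2 fold change -0.96). MetSA replicate 3, which stood apart from its group, was the highest of the MetSA libraries, and the MetSA value stayed between -1.34 and -0.91 under all 20 alternatives.

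Mmp14 (MT1-MMP, ENSMUSG00000000957, chromosome 14 from 54431612 to 54445364) is the membrane-anchored member, known to cut collagen at the cell surface and to activate the precursor of gelatinase A. It rose after each acid and most after MA. It had 17.1, 17.9 and 16.8 CPM in IA libraries, 26.9, 29.9 and 32.7 CPM in MA libraries and 20.8, 19.2 and 20.9 CPM in MetSA libraries, against 6.45, 7.83 and 6.40 CPM in M libraries. The order was MA, MetSA, IA and M, with no overlap between neighbours. The rise was 4.32-fold after MA (log2 fold change 2.11, SE 0.10, adjusted p = 9.82e-12), 2.95-fold after MetSA (1.56, SE 0.10, adjusted p = 1.49e-09) and 2.50-fold after IA (1.32, SE 0.10, adjusted p = 4.13e-09), and each was called under all 20 alternatives.

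Mmp19 (ENSMUSG00000025355, chromosome 10 from 128790910 to 128800824), a secreted MMP outside the collagenase and gelatinase groups, changed least among the MMPs. It had 41.5, 41.2 and 37.8 CPM in IA libraries, 44.6, 37.5 and 44.2 CPM in MA libraries and 33.7, 35.5 and 35.9 CPM in MetSA libraries, against 34.6, 31.65 and 30.3 CPM in M libraries. IA and MA overlapped, MetSA and M overlapped, and the first pair lay above the second. It rose 1.25-fold after IA (log2 fold change 0.32, SE 0.08, adjusted p = 0.00323) and 1.31-fold after MA (0.39, SE 0.08, adjusted p = 0.00116). After MetSA the log2 fold change was 0.12, with a 95% interval from -0.04 to 0.29 (adjusted p = 0.309).

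The inhibitor gene Timp2 (ENSMUSG00000017466, chromosome 11 from 118301069 to 118355740, minus strand) encodes a secreted inhibitor that also takes part in the activation of gelatinase A by Mmp14. It had 309, 317 and 312 CPM in IA libraries, 477, 443 and 435 CPM in MA libraries and 368, 370 and 367 CPM in MetSA libraries, against 382, 369 and 373 CPM in M libraries. The spread within groups was small, and the order was MA, M, MetSA and IA, with overlap only between M and MetSA. Timp2 rose 1.20-fold after MA (log2 fold change 0.27, SE 0.05, adjusted p = 0.00104) and fell by 0.26 on the log2 scale after IA (SE 0.05, adjusted p = 0.00072). After MetSA the value was -0.03, with a 95% interval from -0.14 to 0.09 (adjusted p = 0.791). The calls after IA and MA held under all 20 alternatives.

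Timp1 (ENSMUSG00000001131, chromosome X from 20870166 to 20874735), known for binding the Mmp9 precursor, had the lowest counts of the 8 genes. It had 21, 28 and 28 counts in IA libraries, 67, 18 and 37 in MA libraries and 34, 13 and 39 in MetSA libraries, against 58, 37 and 81 in M libraries. These counts equal 0.447 to 0.591 CPM in IA, 0.342 to 1.25 in MA and 0.257 to 0.761 in MetSA, against 0.685 to 1.55 CPM in M libraries. No difference from M was called: the log2 fold changes were -1.09 after IA (SE 0.47, adjusted p = 0.0796), -0.56 after MA (SE 0.45, adjusted p = 0.454) and -0.98 after MetSA (SE 0.46, adjusted p = 0.151). The IA value was called without a filter on low counts (adjusted p = 0.0252), in a fit of the IA and M libraries alone (0.0376) and without M replicate 2 (0.0485), and its adjusted p ranged up to 0.278 over the alternatives. Stromal cells are another source of Timp1. A sum of 12 stromal markers was 18.0 to 25.8 CPM in IA, 18.7 to 42.1 in MA and 11.4 to 36.9 in MetSA, against 13.0 to 44.2 CPM in M libraries, and replicate 1 was highest and replicate 2 lowest in all 4 groups. Timp1 was lowest in replicate 2 of MA, MetSA and M, but not of IA. Of the 12 markers only Mmp2 was called, higher after each acid. None was at 0 in all libraries, Lum had 0 to 2 counts, and the part of such cells in the Timp1 values was not tested.

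**Figure D2:**
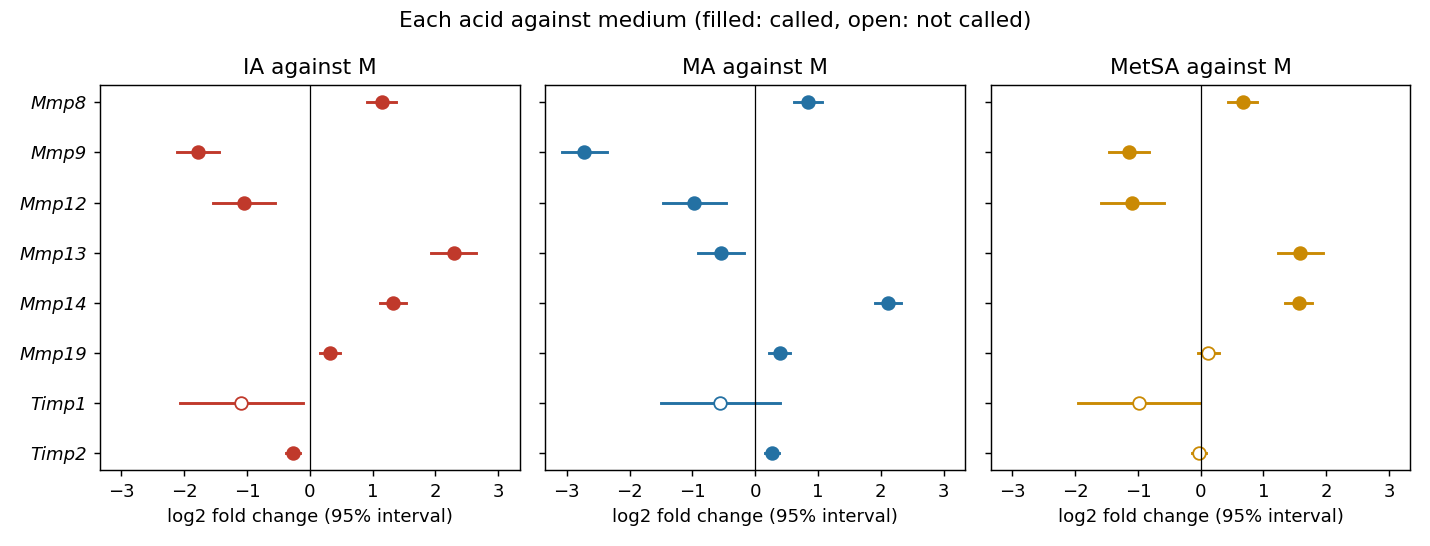
Log2 fold change of each gene after IA, MA and MetSA against M, with 95% intervals from edgeR's fit. Filled points are called at an adjusted p under 0.05 and open points are not. Mmp9 and Mmp12 lie left of 0 and Mmp8 and Mmp14 right of 0 in all 3 panels, while Mmp13 lies right of 0 for IA (2.29) and MetSA (1.59) and left of 0 for MA (-0.55).

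IA and MetSA, which share a carbon skeleton and differ in the double bond, were compared at the same dose and time. Of the 8 genes 4 were called (2 higher and 2 lower in IA), where 6.12% of all genes tested were (3.97% higher and 2.15% lower). Mmp13 was higher in IA (63.2 ± 11.2 CPM) than in MetSA libraries (38.7 ± 6.10 CPM, SD, n = 3 each), at 0.71 on the log2 scale (SE 0.15, edgeR adjusted p = 0.0205). Mmp8 was higher in IA (22.45 ± 2.53 CPM) than in MetSA (16.1 ± 1.34 CPM) by 0.48 (SE 0.11, adjusted p = 0.0116). Mmp9 was lower in IA (8.33 ± 0.0756 CPM) than in MetSA (13.0 ± 1.71 CPM), at -0.65 (SE 0.16, adjusted p = 0.0245), and Timp2 was lower in IA (313 ± 3.73 CPM) than in MetSA (368 ± 1.79 CPM), at -0.24 (SE 0.05, adjusted p = 0.0123).

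Each of these 4 calls between IA and MetSA was lost when some single library was left out. Without MetSA replicate 3 the Mmp13 call (adjusted p = 0.053) and the Mmp9 call (0.0937) were lost. Without IA replicate 1 the calls of Mmp8 (0.0791), Mmp9 (0.0915) and Timp2 (0.056) were lost, without IA replicate 2 that of Mmp9 (0.0738), and without IA replicate 3 those of Mmp9 (0.0916) and Timp2 (0.0734). Mmp13 was also not called in a fit of the IA and MetSA libraries alone (0.0579) or with the replicate number as a block (0.0508). The direction of all 4 differences held under all 20 alternatives. For Mmp12 the difference was 0.04, with a 95% interval from -0.45 to 0.54, and for Mmp14 it was -0.24 (-0.43 to -0.04, adjusted p = 0.156). For Mmp19 it was 0.20 (0.04 to 0.36, adjusted p = 0.144) and for Timp1 -0.11 (-1.13 to 0.91).

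IA and MA differed for 5 of the 8 genes (3 higher and 2 lower in IA), where 34.6% of all genes tested were called (17.8% higher and 16.8% lower). Mmp13 was 7.17-fold higher in IA (63.2 ± 11.2 CPM) than in MA libraries (8.81 ± 1.03 CPM, SD, n = 3 each), or 2.84 on the log2 scale (SE 0.17, edgeR adjusted p = 4.52e-08). Mmp9 was also higher in IA (8.33 ± 0.0756 CPM) than in MA (4.36 ± 0.956 CPM), by 0.93 (SE 0.17, adjusted p = 0.000339). Mmp14 was lower in IA (17.3 ± 0.539 CPM) than in MA (29.8 ± 2.90 CPM), at -0.79 (SE 0.09, adjusted p = 1.47e-06), and so was Timp2, at -0.53 (SE 0.05, adjusted p = 1.62e-07). The difference of Mmp8, 0.31 (SE 0.11, adjusted p = 0.0309), was lost without IA replicate 1 (adjusted p = 0.184), MA replicate 2 (0.0946) or MA replicate 3 (0.122) and with upper-quartile scaling (0.108). That scaling gave a higher share of 37.5% among all calls of this comparison, against 51.5% with TMM. Mmp12 (-0.08, 95% interval -0.57 to 0.42), Mmp19 (-0.07, -0.23 to 0.10) and Timp1 (-0.53, -1.53 to 0.47) were not called.

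MA and MetSA also differed for 5 of the 8 genes (3 higher and 2 lower in MA), where 26.4% of all genes tested were called (11.6% higher and 14.7% lower). Mmp13 was lower in MA (8.81 ± 1.03 CPM) than in MetSA libraries (38.7 ± 6.10 CPM, SD, n = 3 each), at -2.14 on the log2 scale (SE 0.17, edgeR adjusted p = 7.92e-07). Mmp9 was lower in MA (4.36 ± 0.956 CPM) than in MetSA (13.0 ± 1.71 CPM), at -1.58 (SE 0.17, adjusted p = 1.42e-06). Mmp14 was higher in MA (0.55, SE 0.09, adjusted p = 0.000122), as was Timp2 (0.29, SE 0.05, adjusted p = 0.00027). Mmp19 was higher by 0.27 (SE 0.08, adjusted p = 0.0149), a call that was lost without MA replicate 1 (0.0833), MA replicate 3 (0.0705) or MetSA replicate 1 (0.0616). Mmp8 (0.17, 95% interval -0.05 to 0.39), Mmp12 (0.12, -0.38 to 0.62) and Timp1 (0.42, -0.56 to 1.41) were not called. With upper-quartile scaling the higher share of all calls was 54.2% for IA against MetSA (64.8% with TMM) and 54.5% for MA against MetSA (44.1% with TMM).

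**Figure D3:**
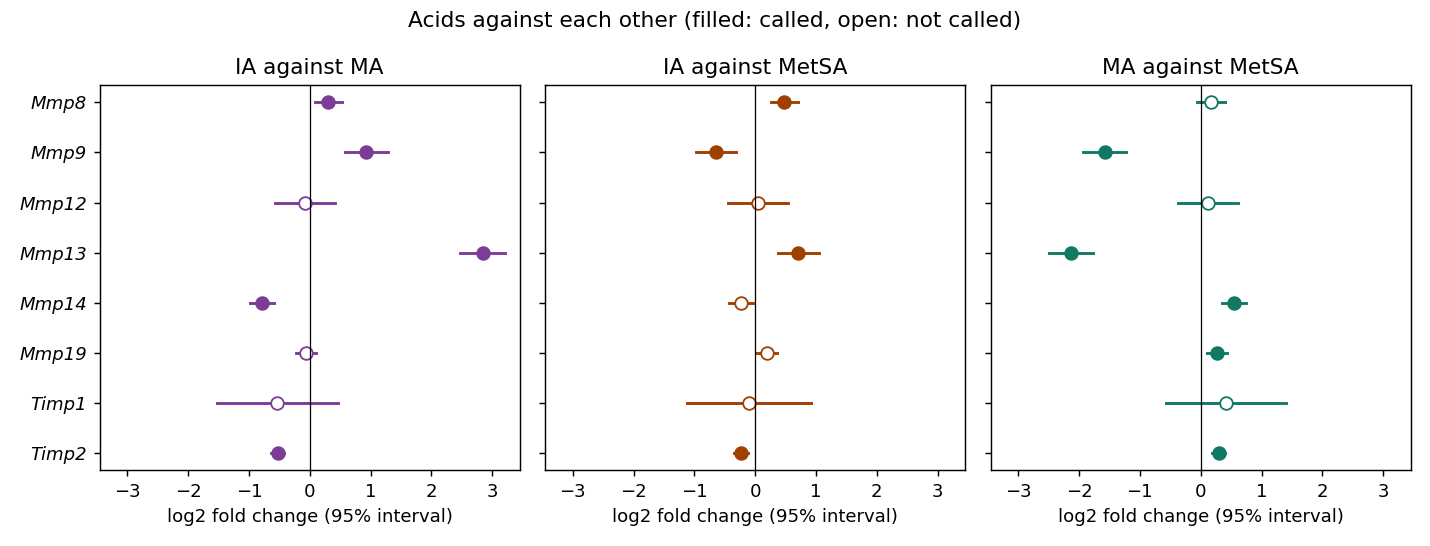
Log2 fold change of each gene between acids, with 95% intervals from edgeR's fit. The acid named first is on top of the fold change, filled points are called and open points are not. Mmp13 has the values farthest from 0 (2.84 for IA against MA and -2.14 for MA against MetSA), and Mmp12 lies at 0.12 or nearer to 0 in all 3 panels.

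Levels of different genes were compared as CPM per kilobase of annotated exon. Timp2 had the highest level of the 8 in every group, at 80.3 ± 0.959 CPM per kilobase in IA, 116 ± 5.67 in MA and 94.55 ± 0.462 in MetSA, against 96.2 ± 1.71 in M libraries (SD, n = 3 each). Among the MMPs, Mmp13 led in IA (23.6 ± 4.18 CPM per kilobase) and Mmp12 led in M (25.3 ± 2.32). In MA libraries Mmp12 (12.9 ± 2.78) and Mmp19 (11.9 ± 1.12) overlapped, as did Mmp13 (14.5 ± 2.28) and Mmp12 (11.9 ± 3.54) in MetSA libraries. Timp1 was the lowest of the 8 in IA, MA and MetSA, while in M it lay at 1.28 ± 0.487 CPM per kilobase beside Mmp14 at 1.16 ± 0.137. With the longest transcript as the length, the order turned for Mmp13 and Mmp12 in MetSA, Mmp9 and Mmp14 in MetSA, Mmp8 and Mmp14 in MA, and Timp1 and Mmp14 in M.

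The 6 MMPs summed to 61.8 ± 3.95 CPM per kilobase in IA, 41.9 ± 4.49 in MA and 50.0 ± 2.69 in MetSA, against 52.7 ± 3.58 in M libraries (SD, n = 3 each). Mmp12 made up 19.9% ± 1.94 of that sum in IA, 30.7% ± 3.51 in MA and 23.6% ± 5.76 in MetSA, against 48.0% ± 1.65 in M libraries. Mmp13 made up 38.1% ± 4.24 in IA, 7.87% ± 0.323 in MA and 29.1% ± 5.73 in MetSA, against 9.16% ± 1.52 in M libraries. Mmp9 made up 3.82% ± 0.222 in IA, 2.92% ± 0.352 in MA and 7.34% ± 0.674 in MetSA, against 15.4% ± 2.64 in M libraries. Mmp12 and Mmp9 had smaller shares in each acid group than in M, and Mmp13 had larger shares in IA and MetSA but not in MA. These shares were not tested beyond the tests of the single genes, and a share depends on the levels of the other 5 genes. Sums and shares also depend on the length used. With the longest transcript, Mmp12 was at 40.98 CPM per kilobase in M and 19.84 in IA, not 25.33 and 12.27. Mmp14 was at 2.129 in M and 5.329 in IA, not 1.157 and 2.895. Sums and shares were not computed with that length, so the higher sum in IA than in M was shown for annotated exon length only. In MetSA the shares of Mmp13 (22.5% to 32.6%) and Mmp12 (18.4% to 29.8%) overlapped, and with the longest transcript as the length Mmp12 (19.3 CPM per kilobase) lay above Mmp13 (14.5).

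**Figure D4:**
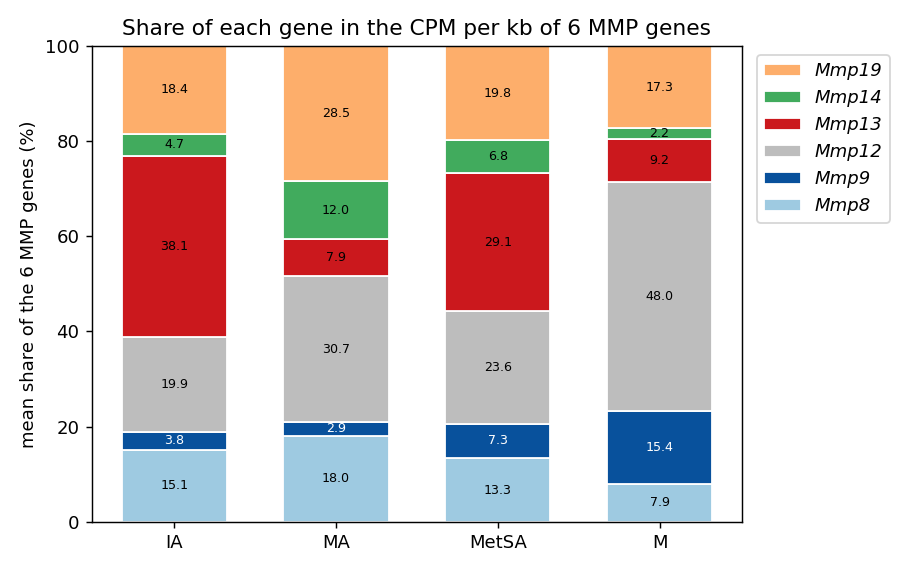
Mean share of each of 6 MMP genes in their summed CPM per kilobase of exon, as stacked bars for IA, MA, MetSA and M from left to right. Mmp12 takes the largest segment in M and MA, and Mmp13 in IA and MetSA, where the MetSA order turns with the longest transcript as the length.

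The ratio of Mmp9 to Timp1 within a library does not depend on how libraries are scaled. Per kilobase of exon it was 4.62, 3.78 and 3.56 in IA libraries, 0.94, 2.41 and 1.80 in MA libraries and 4.24, 11.99 and 4.94 in MetSA libraries, against 7.65, 8.89 and 4.28 in M libraries. The MA libraries lay below all M libraries, and the IA and MetSA libraries overlapped M. The mean log2 ratio differed from M by -2.05 after MA, -0.74 after IA and -0.07 after MetSA. With 3 against 3 libraries a two-sided exact permutation test cannot give a p below 0.1. The exact permutation test gave p = 0.1 for MA, 0.2 for IA and 0.9 for MetSA, or 0.3, 0.3 and 0.9 adjusted over the 3 comparisons, and could not have passed a threshold of 0.05 at this number of libraries.

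Of 17 other MMP genes on the family list 16 were in the table under their symbols and 8 were tested. After IA 3 were called higher and 1 lower, after MA 1 higher and 2 lower, and after MetSA 3 higher and none lower, where 35.2%, 20.3% and 21.2% of all genes were called in the same order of acids. Mmp27, the neighbour of Mmp8 on chromosome 9, had 15.35 CPM in IA, 6.97 in MA and 10.2 in MetSA, against 5.53 CPM in M libraries on average, and rose after IA (log2 fold change 1.47, SE 0.23, edgeR adjusted p = 0.000327) and MetSA (0.88, SE 0.24, adjusted p = 0.018). The other genes called were below 5 CPM and are named because they are few. Mmp25, a membrane-anchored MMP of leukocytes, rose after IA (log2 fold change 2.23) and MetSA (1.37) and fell by 0.92 after MA, with 4.96 CPM in IA, 0.558 in MA and 2.74 in MetSA, against 1.05 CPM in M libraries. Mmp2, gelatinase A, rose after MA (1.87), IA (0.72) and MetSA (0.73), with 4.31 CPM in MA, 1.94 in IA and 1.96 in MetSA, against 1.18 CPM in M. Mmp15, another membrane-anchored MMP, fell by 1.20 after IA and by 1.82 after MA. Timp3 (34 counts at most) was not called after any acid, and Timp4 (2 counts at most) was too low to be tested.

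Among proteins that activate MMP precursors, the list held 11 genes of which 7, including Mmp14, were tested. After MA 3 were called higher and none lower, after IA 1 higher and 2 lower, and after MetSA 1 higher and 1 lower, where 20.3%, 35.2% and 21.2% of all genes were called after MA, IA and MetSA. The gene called higher after IA and after MetSA was Mmp14 itself, which was also among the 3 after MA. Plau, the urokinase that makes plasmin, had 277 CPM in IA, 639.5 in MA and 270 in MetSA, against 356 CPM in M libraries on average. It rose after MA (log2 fold change 0.85, SE 0.07, edgeR adjusted p = 3.31e-08) and fell by 0.36 after IA (SE 0.07) and by 0.40 after MetSA (SE 0.07). Furin, a protease that processes the Mmp14 precursor, rose after MA (0.57, SE 0.05, adjusted p = 2.17e-07), and its values after IA and MetSA were 0.04 and -0.06. The urokinase receptor gene Plaur fell by 0.49 after IA (SE 0.11, adjusted p = 0.00142).

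Further inhibitors and clearance factors of MMPs were also measured. Reck, a membrane-anchored MMP inhibitor, had 1.56 CPM in IA, 2.85 in MA and 1.54 in MetSA, against 3.24 CPM in M libraries on average. It fell by 1.05 on the log2 scale after IA (SE 0.20, edgeR adjusted p = 0.000331) and by 1.07 after MetSA (SE 0.20, adjusted p = 0.000474), with a value of -0.18 after MA that was not called. Cd63, a tetraspanin that binds Timp1, rose after MA (0.27, SE 0.06, adjusted p = 0.00499). The clearance receptor Lrp1 was not called after any acid.

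Of 11 genes for docking proteins and inducers of MMPs all were tested, and 6 were called higher and 1 lower after MA, and 3 higher and 1 lower after IA and after MetSA, where 20.3% of all genes were called after MA, 35.2% after IA and 21.2% after MetSA. Thbs1, thrombospondin 1, had 1425 CPM in IA, 993 in MA and 1036 in MetSA, against 190 CPM in M libraries on average, with log2 fold changes of 2.91, 2.39 and 2.45 (SE 0.21 each, edgeR adjusted p of 3.47e-05 or lower). The integrin subunit Itgav rose after MA (0.93, SE 0.07) and IA (0.47, SE 0.07), and its partner Itgb3 fell after each acid. Cav1, caveolin 1, rose after MA (2.84, SE 0.26, adjusted p = 5.29e-05), with values of 0.26 after IA and 0.43 after MetSA that were not called. Cd44, a docking protein of Mmp9, was not called after any acid.

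For each of the 8 genes the genes of most similar pattern were sought, by the Pearson correlation of log2 CPM over the 12 libraries, which share 4 groups. Differences between groups made up 79.2% to 98.5% of the variance of the 8 genes, other than Timp1 at 35.4%, so these correlations mostly compare group means. Nearest to Mmp13 were Olfr56 (r = 0.995), Psme2b (0.994) and Cmpk2 (0.994). Psme2b is uncertain, since 52.0% of its sequence occurs in Psme2, and Olfr56 shares 111 exon bases with Ifi47. Nearest to Mmp9 were Dok2 (0.979), Apbb1ip (0.977) and Prkch (0.976), and nearest to Mmp14 were Hk2 (0.983), Ctla2a (0.976, part of whose sequence also occurs in other genes) and Mtus1 (0.9685, which shares 612 and 394 exon bases with antisense genes). Mmp8 was nearest to Cnot4 (0.976), Mmp12 to Ung (0.9515), Mmp19 to Commd10 (0.914), Timp1 to Ints11 (0.897, which shares 697 exon bases with Pusl1) and Timp2 to Extl2 (0.971). Among the 8 genes themselves the pair with the highest correlation was Mmp12 and Timp1 (0.778), and the pair with the lowest was Mmp9 and Mmp14 (-0.9025). By Spearman's rho the highest pair was Mmp8 and Mmp19 (0.797) and the lowest Mmp13 and Timp2 (-0.902).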

How the data were processed

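Poly(A) RNA of 12 macrophage cultures was sequenced, with group and replicate taken from sample titles. The authors deposited whole-number counts per gene without normalisation; STAR, featureCounts and mm10 are named in the submitters' processing notes, with no version or annotation given in the sources used here. Of counts from 1 to 9, 66.1% were even, against 50.9% of counts of 1000 or more, so both mates of a pair may often have been counted, and halved counts were tried. Replicates differed beyond counting noise (chi-square of at least 9.14 per degree of freedom).

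Genes kept by filterByExpr (14113 of 32285) were scaled by TMM and tested with edgeR 4.0.16 (R 4.3.3; glmQLFit, robust, 1 fit of 4 groups, 8 residual degrees of freedom), adjusted by Benjamini-Hochberg over all genes tested. SEs and 95% intervals come from that fit, and errors after ± are SDs. The procedure was run on simulated counts in which a small set of genes changed in the IA group only, without a replicate effect. That setting is simpler than these data. Alternatives were 2 other scalings, no filter or at least 1 CPM in 3 libraries, DESeq2 1.42.0, 2 groups alone, a replicate block, halved counts and each library left out.

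The members, lists, tests and alternatives were chosen with earlier results of these data known. Eligible for naming were, per list, the up to 4 genes with the smallest adjusted p and a group mean of at least 5 CPM, and per member the 3 genes of highest Pearson correlation (prior count 2). Mmp2, Mmp15, Mmp25, Reck, Nfatc1, Adam8, Adamts4, list genes named as not called, the marker sum without Csf3r and the start regions shown were chosen after values were seen. Some results are not reported here. Coordinates, lengths and overlaps are from GENCODE M21 on GRCm38.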

Additional observations from a re-analysis of the deposited data

How the results depend on the processing

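Over 20 alternatives, 12 of which leave out 1 library, 33 of the 48 values (8 genes in 6 comparisons) kept their direction and their side of the threshold throughout. Of 960 recomputed values 26 lost the call, 3 gained it and 10 changed sign. All sign changes concerned Timp1 or Mmp12 in comparisons between acids, none of which was called. The replicate numbers of the titles were not taken as pairs. The deviations of same-numbered libraries correlated at 0.0122 to 0.169, and 2 of 18 such correlations were over 0.1. Among pairs of different number the correlations ran from -0.113 to 0.0233, with none of 36 over 0.1. Each of the 12 libraries correlated best with one of its own number. Whether same-numbered libraries shared a preparation was not tested, and the main fit has no term for the replicate number. With the replicate number as a block, genes called higher in IA than in MetSA numbered 1, not 2 (Mmp13, adjusted p = 0.0508), the fall of Mmp13 after MA was not called (log2 fold change -0.54, adjusted p = 0.0977), Timp1 in IA against MetSA was at 0.026, and no other call changed. Over all genes, 560 were called higher and 304 lower in IA than in MetSA. These numbers were 882 and 531 with the block, 917 and 566 with no filter on low counts, 913 and 435 by DESeq2, and 429 and 146 with the 2 groups alone. They were 329 and 97, 353 and 214, and 320 and 100 without IA replicates 1, 2 and 3 in that order, and 351 and 154 without MetSA replicate 3. A fit of the 2 groups alone also gave 1 gene higher in IA than in MetSA. With libraries left out in turn, genes called higher in IA than in MetSA numbered 1 to 2 and genes called lower 0 to 2. Genes called lower after MA numbered 1 to 3, with 1 when MA replicate 1 was left out. The difference in the log2 ratio of Mmp9 to Timp1 for MetSA against M ran from -0.53 to 0.22, and its sign turned without M replicate 1, M replicate 2, MetSA replicate 1 or MetSA replicate 3. Timp1 ran from -0.45 to 0.15 for IA against MetSA, -0.88 to 0.012 for IA against MA and -0.12 to 0.78 for MA against MetSA. Mmp12 ran from -0.13 to 0.29, -0.22 to 0.090 and -0.058 to 0.37 in the same comparisons. The causes were not tested. By Spearman in place of Pearson correlation, 1 of the 3 genes most similar to Mmp9 and 0 of 3 for each of the other 7 genes were again among the 3 nearest. Halved counts changed no call. Timp1 had the fewest counts of the 8 genes, 13 to 81 per library, and SEs of 0.45 to 0.49.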

Other observations

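Other proteases that degrade matrix were measured beside the MMPs. Of 8 cathepsin genes, all tested, 6 were called higher after IA, 5 after MA and 5 after MetSA, and none was called lower by edgeR's quasi-likelihood test, where 17.9%, 10.1% and 12.6% of all genes tested were called higher. Ctss, an elastin-degrading cathepsin, had 3211 CPM in IA, 2619 in MA and 2715 in MetSA, against 1503 CPM in M libraries on average, with log2 fold changes of 1.09, 0.80 and 0.85 (SE 0.07 each). Ctsh rose after each acid as well (0.81, 0.92 and 0.74, SE 0.07 each). Ctsc, which activates serine proteases of granules, rose after IA (0.88, SE 0.07) and MetSA (0.77, SE 0.07), with a value of -0.14 after MA that was not called. Ctsk, the collagen-degrading cathepsin of osteoclasts, stayed below 2 CPM in each group mean and was not called. Ctsd rose after MA (0.81, SE 0.07), though 30.2% of its sequence occurs in another gene.

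Of 11 ADAM and ADAMTS protease genes 9 were tested, and 2 were called higher and 1 lower after IA, 4 higher and 1 lower after MA and 1 higher after MetSA, where 35.2%, 20.3% and 21.2% of all genes were called. Adam9, a membrane-bound protease, rose after IA (0.48, SE 0.07), MA (0.31, SE 0.07) and MetSA (0.31, SE 0.07). The shedding proteases Adam10 (0.37, SE 0.06) and Adam17 (0.34, SE 0.06) rose after MA by edgeR's test, and Adam10 also after IA (0.19, SE 0.06). Adam15 rose after MA (0.23, SE 0.06), while Adam8 fell by 0.20 after MA (SE 0.06) and the low Adamts4 (16 counts at most) was called lower after IA. Among 12 genes for matrix proteins 11 were tested. After IA 1 was called higher and 2 lower, and after MA and after MetSA 1 higher and 1 lower. Of all genes tested, 35.2% were called after IA, 20.3% after MA and 21.2% after MetSA. The basement membrane collagen Col4a1 fell by 1.11 after IA (SE 0.20) and by 0.67 after MetSA (SE 0.20), and fibronectin Fn1 rose after MA (1.71, SE 0.39, adjusted p = 0.0146). The proteoglycan gene Vcan rose after IA (0.92, SE 0.16) and MetSA (1.13, SE 0.16) and fell by 0.73 after MA (SE 0.17). Mmp13 moved in the same directions, though its fall after MA lost the call under 8 of 20 alternatives. Vcan had 10.1 CPM in IA, 3.21 in MA and 11.6 in MetSA, against 5.32 CPM in M libraries on average.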
